A study of Mus musculus with 10 samples.

Results

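Mitochondrial ribosomal protein genes were compared between Mll-deficient and control haematopoietic stem cell-enriched marrow cells. The group holds each gene of the array table whose symbol begins Mrpl or Mrps followed by a digit. It came to 76 genes of 18193 in the table, each represented by the probe set that names 1 gene and has the highest mean signal. The Mll-deficient samples were LSK/CD48- bone marrow cells of 5 female mice with floxed Mll alleles and the Mx1-cre transgene (Mx1-cre;Mll F/F). The control samples were the same fraction from 5 females with the floxed alleles and no cre (Mll F/F). All mice were 8 weeks old, on a B6.SJL background, and had received 3 injections of the interferon inducer pI:pC at 48-hour intervals, with marrow taken on day 6. Mx1-cre is switched on by interferon in any responsive cell, so deletion was not restricted to blood cells. Control mice carried no cre, and what cre does by itself cannot be told apart from Mll loss. Each mouse gave 1 array, hybridised with RNA amplified from 1500 to 10000 sorted cells.

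Mitochondria carry their own ribosome, which translates the few proteins encoded by mitochondrial DNA, all of them subunits of the respiratory chain and ATP synthase. Its RNAs come from mitochondrial DNA, whereas every one of its proteins is encoded in the nucleus, made in the cytosol and imported. Some of these proteins descend from bacterial ribosomal proteins and others are found only in mitochondria. Stem cells of the marrow are known for low mitochondrial activity at rest, and differentiating erythroid progenitors for a rise in it.

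The promoters of members were searched for letters that nuclear regulators of mitochondrial genes are known to bind. RefSeq windows (GRCm38.p6) of 300 bases, from 250 before to 50 after a start site, were matched for 67 of the 76 members, 73 windows in all. The searched letters were CCGGAAG (the ETS motif of Gabpa), GCATGCGC (Nrf1) and AAGATGGC (Yy1), on both strands. Windows of Mrpl52, Mrps18b and Mrpl20 are shown, since all 3 genes passed the test in every fit and the last holds none of these 3 motifs. Mrps36 also passed in every fit, and its window, which is not printed, holds none of them either. The windows shown are printed 5′ to 3′ on the gene's strand, with matches in capitals. They lie at chr14:54426659-54426958 on the plus strand, chr17:35916391-35916690 on the minus strand and chr4:155802628-155802927 on the plus strand.
Mrpl52: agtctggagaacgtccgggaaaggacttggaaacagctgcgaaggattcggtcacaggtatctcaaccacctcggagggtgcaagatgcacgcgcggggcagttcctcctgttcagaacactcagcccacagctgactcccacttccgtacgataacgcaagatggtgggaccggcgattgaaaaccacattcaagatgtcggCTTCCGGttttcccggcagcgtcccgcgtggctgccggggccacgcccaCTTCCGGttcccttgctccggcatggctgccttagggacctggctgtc
Mrps18b: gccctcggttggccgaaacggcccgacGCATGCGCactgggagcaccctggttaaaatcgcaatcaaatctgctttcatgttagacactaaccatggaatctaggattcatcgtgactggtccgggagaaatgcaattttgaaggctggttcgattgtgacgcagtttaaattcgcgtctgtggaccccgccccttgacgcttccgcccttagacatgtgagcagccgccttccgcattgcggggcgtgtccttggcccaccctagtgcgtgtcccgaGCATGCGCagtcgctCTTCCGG
Mrpl20: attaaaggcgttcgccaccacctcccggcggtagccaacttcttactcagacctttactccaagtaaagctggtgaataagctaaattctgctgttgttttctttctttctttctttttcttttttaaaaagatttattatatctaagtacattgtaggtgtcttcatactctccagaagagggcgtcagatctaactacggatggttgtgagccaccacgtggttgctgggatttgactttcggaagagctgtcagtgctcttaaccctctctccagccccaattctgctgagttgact

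Many mitochondrial ribosomal protein genes were higher in Mll-deficient cells, and none of the 76 passed the test as lower. Of 76 members, all of which passed the filter on low values and were tested, 17 were higher in Mll-deficient cells at an adjusted p under 0.05 (limma, Benjamini-Hochberg adjustment over all 12580 tested genes), 0 were lower and 59 did not pass. This is 22.4% of the members, against 5.52% of all tested genes called in either direction, 3.76% higher and 1.76% lower. At an unadjusted p under 0.05, 54 members were higher and 0 lower, against 10.5% of all tested genes higher. The differences of 74 members lay above 0, as did those of 46.6% of all tested genes. The median difference of the members was 0.62 on the log2(signal + 16) scale, with quartiles of 0.43 and 0.85, and that of all tested genes was -0.04. In sorted cells of mixed stages, more cells of a type and more RNA per cell cannot be told apart.

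**Figure D1:**
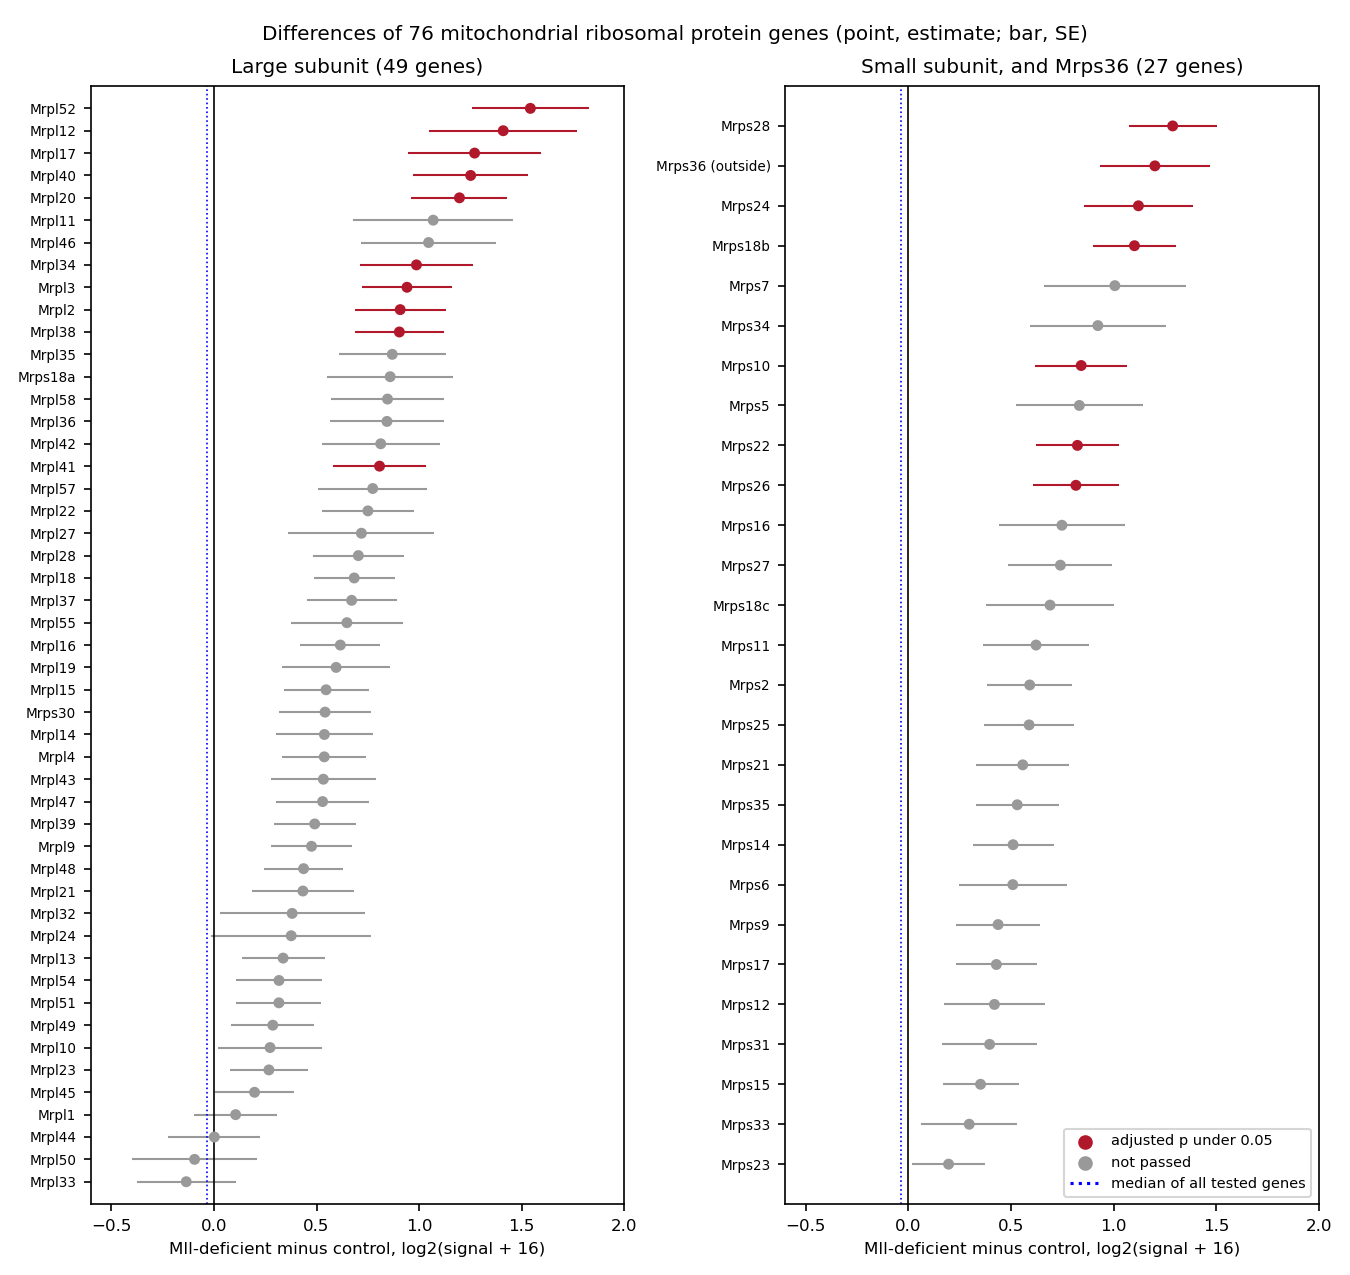
Differences between Mll-deficient and control cells of the 76 genes on the log2(signal + 16) scale (horizontal axis), each point an estimate from the model over 5 and 5 arrays and each bar its SE. Red points passed an adjusted p of 0.05 and grey ones did not. All but 2 estimates lie right of 0, and the dotted line is the median of all tested genes.

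The small subunit binds messenger RNA and decodes it. Of its 26 members, 6 rose (23.1%, against 22.4% of all members and 3.76% of all tested genes) and 20 did not pass. The estimates of all 26 lay above 0 (median 0.61), as did those of 46.6% of all tested genes.

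Mrps28, the mitochondrial counterpart of bacterial S1, had the smallest p of the members. Its signal was 808, 684, 764, 707 and 1062 on the Mll-deficient arrays, against 211, 330, 405, 355 and 313 on the control arrays, in arbitrary scaled units. Every Mll-deficient array lay above every control array, and the difference was 1.29 ± 0.21 (SE, adjusted p = 0.00282), a 2.44-fold rise. Mrps18b, 1 of 3 mammalian relatives of bacterial S18, had 405, 513, 515, 489 and 572 on Mll-deficient arrays, against 232, 265, 158, 264 and 212 on control arrays. Again no control array reached the Mll-deficient ones, and the difference was 1.10 ± 0.20 (SE, adjusted p = 0.00589).

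Mrps24, the counterpart of bacterial S3, had 2087, 1244, 3016, 2136 and 3381 on Mll-deficient arrays, against 735, 887, 1299, 947 and 1387 on control arrays. The lowest Mll-deficient array, replicate 2, lay below the highest pair of control arrays, so the groups overlapped, with a difference of 1.12 ± 0.27 (SE, adjusted p = 0.0227). Mrps10, a protein of the small subunit's head with a bacterial relative, averaged 1304 ± 143 in Mll-deficient cells and 746 ± 229 in control cells (SD, n = 5 each). Mrps22 and Mrps26 are found only in mitochondria, and mutations of human MRPS22 cause a combined respiratory chain deficiency. Mrps22 read 575, 596, 614, 557 and 730 on Mll-deficient arrays, against 275, 337, 487, 347 and 283 on control arrays. Mrps26 averaged 1990 ± 263 in Mll-deficient cells and 1147 ± 316 in control cells (SD, n = 5 each). The differences of these last 3 genes lay between 0.82 and 0.84 with adjusted p of 0.0380 for Mrps10, 0.0267 for Mrps22 and 0.0325 for Mrps26, and the groups did not overlap for any of them. With probe sets averaged, the calls of Mrps10 (0.46, adjusted p = 0.205) and Mrps26 (0.36, adjusted p = 0.305) were lost. That average counts dim probe sets equally. The other set of Mrps10 averaged 33.8 in Mll-deficient and 31.1 in control cells. That of Mrps26, at 10.3 and 12.7, was below the filter.

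Among the small subunit genes that did not pass, Mrps7, a counterpart of bacterial S7, had the largest estimate, at 1.01 ± 0.34 (SE, adjusted p = 0.103). Its signal on Mll-deficient arrays was 1089, 915, 934, 614 and 661, against 386, 779, 416, 583 and 138 on control arrays. Mrps7 is named here after its values were seen, as is Mrps23, which had the smallest estimate of the subunit, at 0.20 ± 0.18 (SE, adjusted p = 0.590). Mrps23 read 303, 338, 327, 367 and 312 in Mll-deficient cells, against 292, 275, 263, 296 and 301 in control cells. Its groups did not overlap although the difference was small.

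The large subunit forms peptide bonds and holds the tunnel through which the new protein leaves. It also holds Mrps18a and Mrps30, which were named for the small subunit and later placed in the large one. Of its 49 members, 10 rose (20.4%, against 22.4% of all members and 3.76% of all tested genes) and 39 did not pass. Their median was 0.62, and 47 estimates lay above 0.

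Mrpl52, a mitochondria-specific protein, had the largest estimate of all members. Its signal was 4838, 3275, 7138, 5056 and 7287 on Mll-deficient arrays, against 1124, 1632, 2758, 1354 and 2814 on control arrays. No arrays overlapped, and the difference was 1.54 ± 0.29 (SE, adjusted p = 0.00589), a 2.91-fold rise. A further pair of its probe sets also rose, with mean signals of 222 and 434 in Mll-deficient cells and 68.4 and 97.4 in control cells (adjusted p = 0.00505 and 0.00148 over all probe sets). The dimmest, at 0.35 ± 0.23 (SE), did not pass (adjusted p = 0.463).

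Mrpl20, whose bacterial relative is needed early in assembly of the large subunit, had 301, 310, 373, 254 and 426 on Mll-deficient arrays, against 179, 130, 163, 140 and 79.8 on control arrays. All 5 Mll-deficient arrays lay above the control arrays, and the difference was 1.20 ± 0.23 (SE, adjusted p = 0.00806). Mrpl40, a mitochondria-specific protein of the central protuberance, had 1373, 1326, 1465, 732 and 1550 on Mll-deficient arrays, against 346, 854, 710, 501 and 341 on control arrays. Mll-deficient replicate 4 fell within the control range, and the difference was 1.25 ± 0.28 (SE, adjusted p = 0.0168).

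Mrpl12 forms the stalk that recruits translation factors. Its signal was 950, 852, 1136, 461 and 791 on Mll-deficient arrays, against 291, 544, 309, 437 and 94.7 on control arrays. Mll-deficient replicate 4 again lay within the control range, and the difference was 1.41 ± 0.36 (SE, adjusted p = 0.0321). Its stalk partners Mrpl10 and Mrpl11, named after their values were seen, did not pass, with differences of 0.27 ± 0.25 and 1.07 ± 0.39 (SE, adjusted p = 0.594 and 0.123). Mrpl11 passed with the replicate block, with array weights and with the RNA quality covariate.

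Mrpl3 and Mrpl2, counterparts of bacterial proteins close to the peptide-bond-forming centre, read between 734 and 906 and between 1260 and 1486 on Mll-deficient arrays. On control arrays they read between 308 and 632 and between 503 and 985. Neither pair of ranges overlapped, and the differences were 0.94 ± 0.22 for Mrpl3 (SE, adjusted p = 0.0194) and 0.91 ± 0.22 for Mrpl2 (SE, adjusted p = 0.0261). With its probe sets averaged, Mrpl3 stood at 0.40 and its call was lost (adjusted p = 0.151). Its other probe sets were dim, with means of 12.9 to 66.3 in Mll-deficient cells and 15.4 to 66.2 in control cells. Mrpl38, another protein of the central protuberance, rose by 0.90 ± 0.22 (SE, adjusted p = 0.0236) with no overlap. Of its other probe sets, 1 rose by 1.14 ± 0.23 (SE, adjusted p = 0.0120 over all probe sets). Another, with 127 in Mll-deficient and 149 in control cells on average, stood at -0.22 ± 0.21 (SE, adjusted p = 0.647). Mrpl17 at the peptide exit, Mrpl34 with a bacterial relative and the mitochondria-specific Mrpl41 rose by 1.27 ± 0.32, 0.99 ± 0.27 and 0.81 ± 0.23 (SE, adjusted p = 0.0309, 0.0460 and 0.0466). For these 3 genes the groups overlapped. With probe sets averaged, Mrpl17 stood at 0.33 and its call was lost (adjusted p = 0.268).

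**Figure D2:**
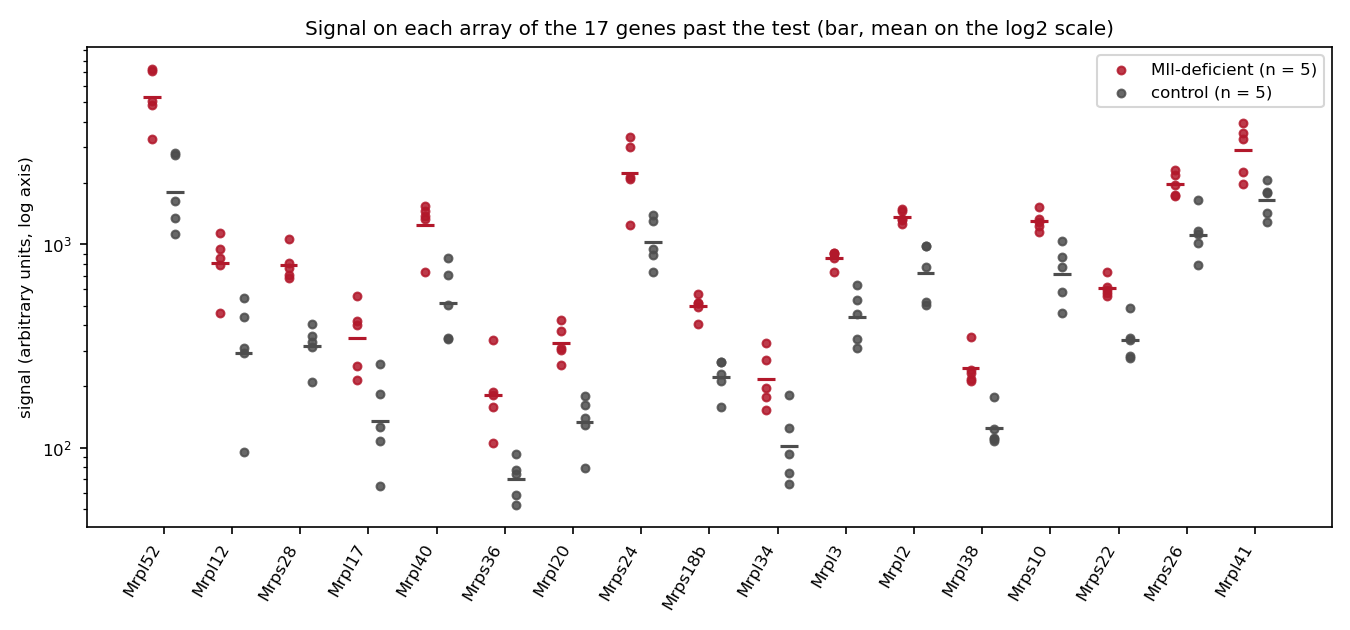
Signal on each array (arbitrary units, logarithmic axis) of the 17 genes past the test, with Mll-deficient arrays in red left of control arrays in grey and the bar at the mean on the log2 scale. The groups do not overlap for 11 of the 17, and for Mrpl40 and Mrpl12 the lowest Mll-deficient point is replicate 4.

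For 17 members no Mll-deficient array overlapped with a control array, all of them higher in Mll-deficient cells, against 4.42% of all tested genes higher and 2.54% lower. Of these, 11 passed the test. The other 6 were Mrpl16, Mrpl18, Mrps2, Mrps21, Mrps23 and Mrps35, of which Mrpl18 was nearest to the threshold. Mrps2, Mrps21 and Mrps35 are named after their values were seen. Mrpl18, the counterpart of a bacterial protein of the central protuberance, had 995, 1001, 1035, 1499 and 1222 on Mll-deficient arrays, against 620, 614, 683, 909 and 716 on control arrays. Its difference was 0.68 ± 0.20 (SE, adjusted p = 0.0532). The next smallest p values among the members that did not pass belonged to Mrpl35, Mrpl22, Mrpl46, Mrpl16, Mrpl28, Mrpl37 and Mrpl58, with differences between 0.62 and 1.05 and adjusted p between 0.0617 and 0.0879. Mrpl58 is a release factor relative that became part of the large subunit.

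Several members showed little difference. Mrpl44, a relative of ribonuclease III near the peptide exit, read 3090, 3005, 4336, 4864 and 4014 on Mll-deficient arrays, against 3332, 3258, 4451, 2814 and 5742 on control arrays. Its difference was 0.0018 ± 0.22 (SE, adjusted p = 0.998), and its other tested probe sets stood at 0.15 ± 0.23 and 0.041 ± 0.24 (SE, adjusted p = 0.796 and 0.949). Mrpl33, the counterpart of a small bacterial protein, read 258, 203, 244, 246 and 104 on Mll-deficient arrays, against 266, 198, 244, 209 and 206 on control arrays. Apart from Mll-deficient replicate 5 the arrays of both groups shared 1 range, and the difference was -0.14 ± 0.24 (SE, adjusted p = 0.809). Mrpl50, a mitochondria-specific protein, stood at -0.09 ± 0.30 (SE, adjusted p = 0.903) on its brighter probe set, while a dimmer one, with 81.3 in Mll-deficient and 31.9 in control cells on average, rose by 1.01 ± 0.23 (SE, adjusted p = 0.0227 over all probe sets). Mrpl1, a counterpart of bacterial L1, stood at 0.11 ± 0.20 (SE, adjusted p = 0.820). Intervals of this width do not show that the levels were equal.

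The relatives of bacterial S18 were measured side by side. Mrps18b stays in the small subunit and passed the test, as given above. Mrps18a, of the large subunit, read 278, 287, 316, 155 and 286 on Mll-deficient arrays, against 160, 191, 133, 200 and 50.1 on control arrays, a difference of 0.86 ± 0.31 (SE, adjusted p = 0.116). Mrps18c, of the small subunit, read 152, 108, 285, 158 and 167 on Mll-deficient arrays, against 159, 55.7, 176, 63.1 and 79.8 on control arrays, a difference of 0.69 ± 0.31 (SE, adjusted p = 0.214). The groups overlapped for Mrps18a and Mrps18c, and the difference between the 3 genes was not tested.

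Mrps30, of the large subunit, did not pass (0.54 ± 0.22, SE, adjusted p = 0.179). Mrps36 carries a mitoribosomal name but is now known as a subunit of the 2-oxoglutarate dehydrogenase complex of the citric acid cycle. It read 158, 105, 337, 188 and 183 on Mll-deficient arrays, against 58.6, 93.2, 74.1, 78.0 and 52.0 on control arrays. Again the ranges were apart, and the difference was 1.20 ± 0.27 (SE, adjusted p = 0.0161). 

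By origin, 10 of 46 members with a bacterial relative rose (21.7%), with a median of 0.62. Of 29 mitochondria-specific members 6 rose (20.7%), with a median of 0.59. Both shares lie near the 22.4% of all members, and 3.76% of all tested genes were higher. The 7 listed proteins around the peptide exit had a median of 0.38, and Mrpl17 was the 1 of them that passed. The 5 listed proteins of the central protuberance had a median of 0.90, with Mrpl38 and Mrpl40 past the test. That list leaves out Mrpl18, which did not pass (0.68, adjusted p = 0.0532). Whether these classes differ was not tested.

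**Figure D3:**
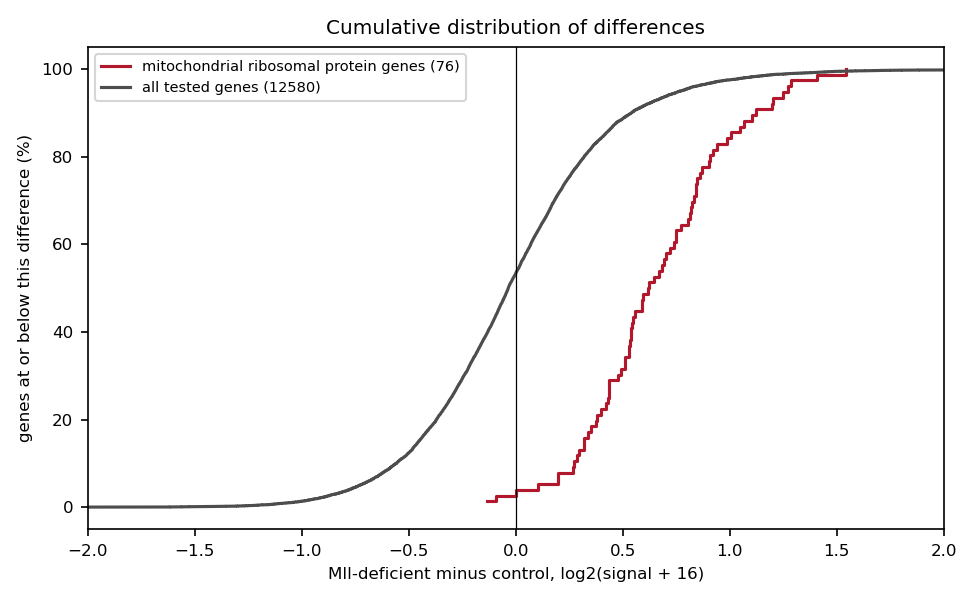
Cumulative distribution of the difference (Mll-deficient minus control, log2(signal + 16), horizontal axis) over the 76 members in red and over all 12580 tested genes in grey. The member curve lies to the right, with a median of 0.62 against -0.04.

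The 76 members had 156 probe sets that name 1 gene, of which 143 were tested. In the fit over all probe sets 20 rose and 0 fell, against 2.12% of all tested probe sets called higher and 1.16% lower. The 67 tested probe sets that did not represent their gene had a median difference of 0.25, with 47 above 0 and 20 below, and 6 of them rose, those of Mrpl38, Mrpl41, Mrpl50 and Mrps24 and 2 of the 3 of Mrpl52. Of all tested probe sets on the array, 42.9% lay above 0. The second probe set of Mrps24 rose by 1.31 ± 0.31 (SE, adjusted p = 0.0292), while the other tested ones of Mrpl17 stood at 0.051 ± 0.28 and -0.34 ± 0.26 (SE) and did not pass (adjusted p = 0.946 and 0.524). Of the representing probe sets, 12 have names ending in _x_at or _s_at, which by the maker's naming can match further transcripts, and 2 of the 17 calls, Mrpl38 and Mrps24, rest on such sets. The mean signals of the representing probe sets ranged from 45.5 to 3891. Mrpl44, Mrpl39 and Mrpl52 lay at the upper end and Mrpl37, Mrpl55 and Mrpl54 at the lower, but signals of different probe sets are not comparable as amounts of RNA. Mrpl39, Mrpl37, Mrpl55 and Mrpl54 did not pass, with differences of 0.49, 0.67, 0.65 and 0.32 (adjusted p = 0.170, 0.0873, 0.185 and 0.428).

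Averaged over the 76 members, the log2 level was 9.11, 9.06, 9.34, 9.09 and 9.32 on Mll-deficient arrays 1 to 5, against 8.46, 8.71, 8.63, 8.63 and 8.21 on control arrays 1 to 5. The groups did not overlap, with the highest values on Mll-deficient replicates 3 and 5 and the lowest on control replicate 5. Of the 76 members, 24 had their highest value on Mll-deficient replicate 3 and 27 on replicate 5, while 39 had their lowest on control replicate 5. That array also had the lowest mean correlation with its group over all tested genes, at 0.926, against 0.952 to 0.962 for the other arrays, and the highest log2 ratio of 3' to middle signal of Gapdh and Actb, at 5.24. This ratio, a measure of RNA quality, ranged from 2.37 to 3.87 on Mll-deficient arrays and from 1.73 to 5.24 on control arrays. Without control replicate 5, 18 members rose and the member median was 0.57, and with the ratio as a covariate 39 rose and the median was 0.66. Calls over all tested genes went up in both fits, from 473 higher and 221 lower. They came to 554 higher (4.41%) and 319 lower without control replicate 5, and to 968 higher (7.69%) and 642 lower with the covariate.

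The call of single genes depended on single arrays. The count of members that rose was 11, 7 and 5 without Mll-deficient replicates 1, 3 and 5, and 5, 9 and 10 without control replicates 1, 3 and 4, while 0 fell in any of these fits. Calls over all tested genes dropped too, with 237 to 307 higher (1.89% to 2.44%) in these 6 fits, against 473 with all arrays. Mrps28, Mrps18b, Mrpl52, Mrpl20 and Mrps36 passed in all 10 fits that left out an array and in all 12 that kept the arrays and changed another choice. Mrpl41, Mrpl34 and Mrps10 were lost in 9, 8 and 7 of the 10 fits. Mrpl12, Mrps26, Mrpl17, Mrpl38, Mrps22, Mrpl2 and Mrps24 were lost in 4 to 6, and Mrpl3 and Mrpl40 in 2 each.

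**Figure D4:**
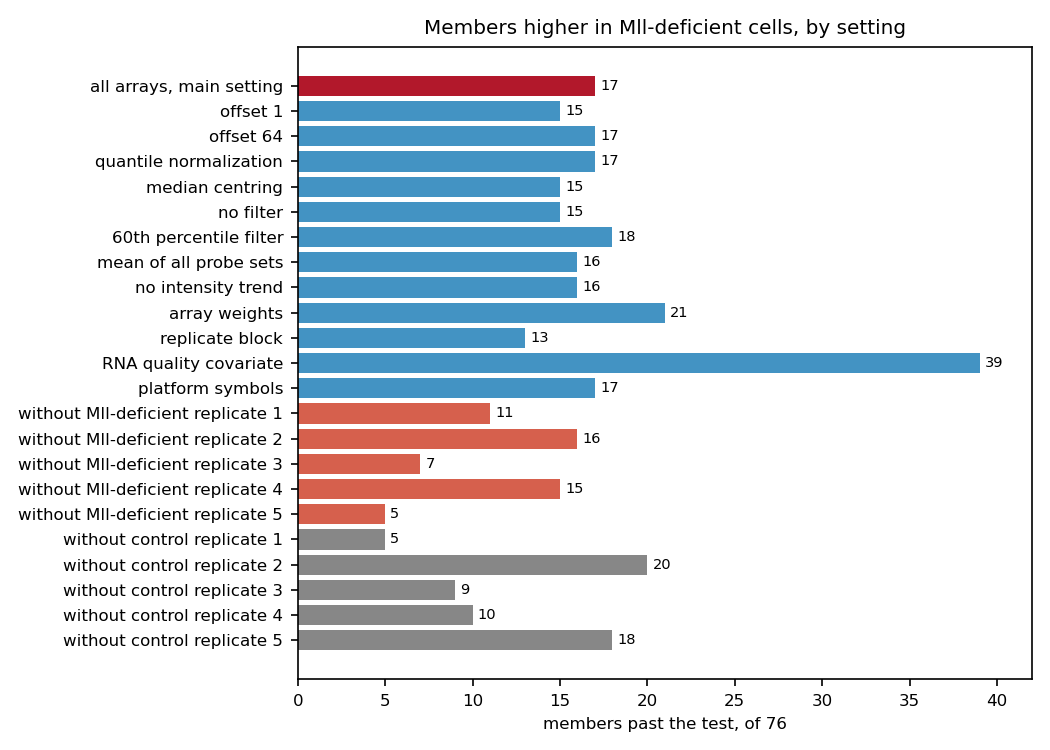
Number of the 76 members past the test (horizontal axis) under each setting, all of them higher in Mll-deficient cells. The count was 17 in the main setting, between 13 and 39 when another choice was changed with all arrays kept, and between 5 and 20 when an array was left out.

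Erythroid and S phase genes were read from the same fit, in which 3.76% of all tested genes were higher. Of 16 measured erythroid genes 10 rose and 6 did not pass. Those past the test included Klf1, the activator of globin genes (3.00 ± 0.27, SE, adjusted p = 2.52e-05), and Gata1 (1.63 ± 0.30, SE, adjusted p = 0.00589). The summed signal of the 16 was 18994 to 21852 on Mll-deficient arrays and 5676 to 10202 on control arrays. Of the 16, 0 were at exactly 0 on any array, but the lowest signal, on a control array, was 0.52. The S phase list had 5 of 20 genes past the test as higher and 15 not past it. Those that rose included the helicase subunit gene Mcm2 (1.26 ± 0.26, SE, adjusted p = 0.0116). The mean log2 level of the list was 10.55 to 10.84 on Mll-deficient arrays and 10.01 to 10.38 on control arrays. Its summed signal overlapped between groups, at 52254 to 65384 on Mll-deficient arrays and 40371 to 63145 on control arrays. Within the control group, replicate 5 had the highest mean of both lists and the lowest mean of the mitochondrial ribosomal protein genes. The erythroid gene Slc4a1, named after its values were seen, read 2751 on that array and 11.1 to 97.2 on the other control arrays. By the median over the erythroid list, control replicate 2 was highest, at 8.39 against 8.26 for replicate 5. The part of erythroid or dividing cells in the members' differences was not tested.

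Among genes of the sort gate or of stem cells, the stem cell gene Hlf fell by 1.48 ± 0.40 (SE, adjusted p = 0.0384). Its groups overlapped, at 153 to 578 on Mll-deficient arrays and 326 to 1592 on control arrays. Kit, Slamf1 and Procr did not pass (-0.73 ± 0.27, -0.66 ± 0.25 and -1.08 ± 0.35, SE, adjusted p = 0.132, 0.139 and 0.0863). Cd48, absent from the surface of the sorted cells, read 68.7 to 172 on Mll-deficient arrays and 44.1 to 197 on control arrays. The gate excludes mature lineages, yet neutrophil genes were bright in both groups, and S100a8, named after its values were seen, averaged 25895 ± 5032 in Mll-deficient cells and 23795 ± 8157 in control cells (SD, n = 5 each). Of 13 measured neutrophil and monocyte genes and 7 B cell genes, 0 passed (limma). Of 9 tested megakaryocyte genes and 5 tested T and natural killer cell genes, 0 passed either. Over all tested genes 5.52% were called in either direction. At an unadjusted p under 0.05, 3 neutrophil and monocyte genes were higher and 2 lower. At the same p 2 megakaryocyte genes were lower, 1 T and natural killer cell gene was higher and 0 B cell genes passed. Over all 12580 tested genes, 1317 were higher and 1289 lower at that p. The summed signal of the neutrophil and monocyte list was 120709 to 201997 in Mll-deficient cells and 115538 to 173195 in control cells. Kmt2a, the gene of Mll, read 304, 257, 255, 52.2 and 211 on Mll-deficient arrays, against 257, 399, 214, 262 and 170 on control arrays, and did not pass (-0.38 ± 0.36, SE, adjusted p = 0.610). Where its probe set lies relative to the deleted part was not analysed here, so it does not check the labels.

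**Figure D5:**
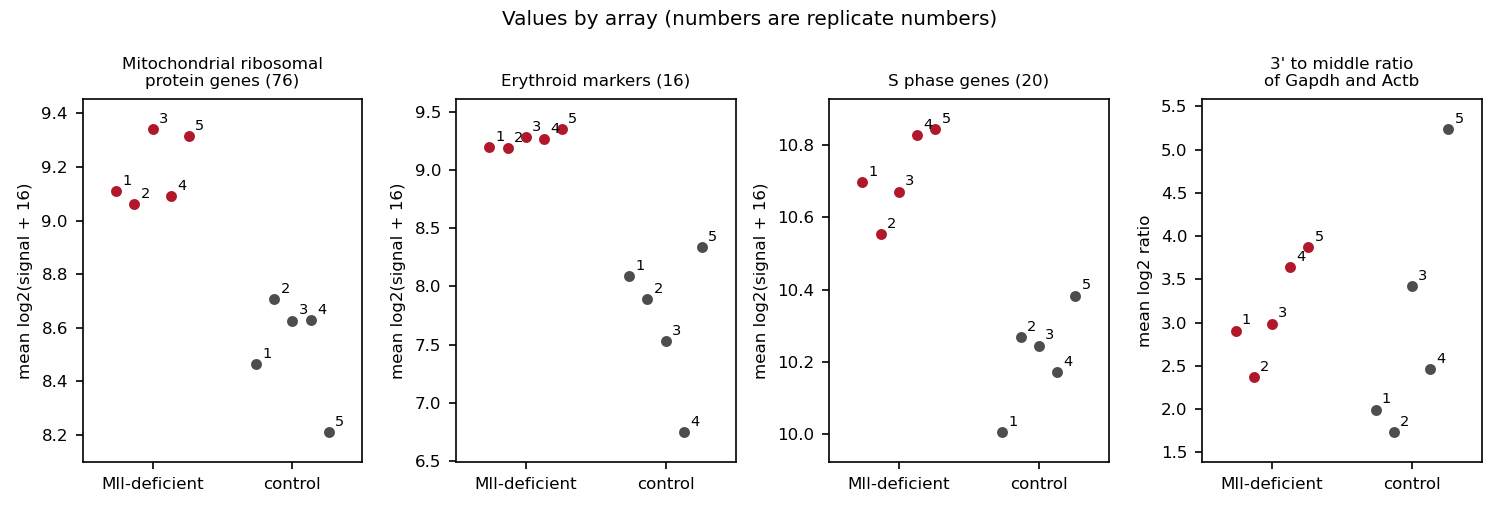
Mean log2(signal + 16) over the 76 members, 16 erythroid markers and 20 S phase genes, and the log2 3' to middle ratio of Gapdh and Actb, on each array (points, with the replicate number). The groups separate in the first 3 panels and overlap in the last, where control replicate 5 is highest at 5.24.

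Other genes of mitochondrial translation were read from the same fit, in which 3.76% of all tested genes were higher and 1.76% lower. Of 4 measured mitoribosome proteins with other names, 2 rose and 2 did not pass. Gadd45gip1, a large subunit protein also called Crif1, had 301, 491, 368, 401 and 679 on Mll-deficient arrays, against 152, 224, 182, 213 and 140 on control arrays, with no overlap and a difference of 1.20 ± 0.24 (SE, adjusted p = 0.00884). Its call was lost when its probe sets were averaged (0.41, adjusted p = 0.276). Chchd1, a small subunit protein, rose by 0.93 ± 0.24 (SE, adjusted p = 0.0342). Aurkaip1 was not analysed here.

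Of 21 measured factors of mitoribosome assembly, 2 rose (9.52%, against 3.76% of all tested genes) and 19 did not pass, with a median of 0.16. Noa1, a GTPase of mitoribosome assembly, read 300 to 385 on Mll-deficient arrays and 101 to 213 on control arrays, a difference of 1.11 ± 0.21 (SE, adjusted p = 0.00749). Fastkd2, an RNA-binding protein needed for the large subunit, rose by 1.21 ± 0.30 (SE, adjusted p = 0.0269), with overlapping groups.

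Of 11 measured translation factors of mitochondria, 2 rose (18.2%, against 3.76% of all tested genes) and 9 did not pass, with a median of 0.20. Tufm, the elongation factor that brings transfer RNA, had 1345, 886, 1254, 1443 and 1262 on Mll-deficient arrays, against 408, 625, 677, 605 and 517 on control arrays, a difference of 1.11 ± 0.21 (SE, adjusted p = 0.00611). Gfm1, the translocation factor, rose by 1.07 ± 0.22 (SE, adjusted p = 0.0106). The groups did not overlap for either. The initiation factor genes Mtif2 and Mtif3, named after their values were seen, stood at 0.20 ± 0.22 and 0.054 ± 0.21 (SE, adjusted p = 0.653 and 0.920).

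Of 11 genes that maintain or express mitochondrial DNA, 2 rose (18.2%, against 3.76% of all tested genes) and 9 did not pass, with a median of 0.15. Those that rose were the partners Slirp and Lrpprc, which together stabilise mitochondrial messenger RNAs, at 1.17 ± 0.25 and 0.95 ± 0.26 (SE, adjusted p = 0.0133 and 0.0400). The call of Lrpprc was lost with median centring, with no filter and with the replicate block (adjusted p = 0.0555, 0.0588 and 0.0590).

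Of 10 nuclear regulators linked to mitochondrial genes, 2 rose (20%, against 3.76% of all tested genes), 0 fell and 8 did not pass, with a median of -0.02. Pprc1, a coactivator related to Ppargc1a, read 281 to 413 on Mll-deficient arrays and 104 to 268 on control arrays (0.86 ± 0.24, SE, adjusted p = 0.0436). Myc, an activator of growth genes, read 620 to 959 on Mll-deficient arrays and 300 to 556 on control arrays (0.79 ± 0.22, SE, adjusted p = 0.0455). Both calls were lost with median centring, no filter and the replicate block, where adjusted p lay between 0.0528 and 0.0893, and that of Myc also with no intensity trend (adjusted p = 0.0538). The factor genes Nrf1, Gabpa and Yy1, named after their values were seen, stood at 0.036 ± 0.31, -0.083 ± 0.21 and -0.33 ± 0.25 (SE, adjusted p = 0.965, 0.871 and 0.488).

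Other large protein groups were read from the same fit, in which 3.76% of all tested genes were higher. Of 47 tested genes of the cytosolic ribosome 6 rose and 0 fell (12.8%, median 0.49), and of 75 tested genes of the respiratory chain and ATP synthase 10 rose and 0 fell (13.3%, median 0.46). The mitochondrial ribosomal protein genes, at 22.4% and 0.62, were not tested against either group.

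Of the windows printed earlier, that of Mrpl52 holds CCGGAAG 2 times, read on the opposite strand as CTTCCGG, and that of Mrps18b holds GCATGCGC 2 times and CCGGAAG 1 time. Over the 73 member windows, CCGGAAG was in 34.2%, GCATGCGC in 11.0% and AAGATGGC in 16.4%. In the windows of all tested genes these shares were 16.5%, 4.94% and 4.18%, and over every RefSeq window 8.86%, 2.71% and 2.75%. At least 1 of the 3 was in 50.7% of member windows and in 23.4% of windows of all tested genes. Members past the test had 17 windows, of 15 genes, and 8 of these windows held at least 1. Members that did not pass had 56 windows, of 52 genes, and 29 of these held at least 1. The E-box CACGTG was in 9.59% of member windows and 9.69% of those of all tested genes, TATAAA in 6.85% and 7.70%, and CCAAT in 39.7% and 37.4%. These shares are descriptions and say nothing about binding in these cells.

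Some members share a promoter region with a neighbour read in the opposite direction. Of the 67 members, 25 had another gene's start within 1000 bases upstream on the other strand, 5 of them past the test. The share of all tested genes with such a neighbour was not counted, so this is not shown to be particular to the members. Of 21 tested neighbours that are not members, 1 rose and 0 fell, 13 lay above 0 and 8 below, and their median difference was 0.33. Of all tested genes 46.6% lay above 0, with a median of -0.04. With 3.76% of all tested genes higher, a count of 1 among 21 is near the background. The gene that rose was Tcp1, a chaperonin subunit, next to Mrpl18 (0.89 ± 0.22, SE, adjusted p = 0.0251). The 4 tested neighbours of members past the test, Klc4 beside Mrpl2, Hira beside Mrpl40, Pnpla7 beside Mrpl41 and Ppp1r10 beside Mrps18b, stood at -0.41 ± 0.22, -0.12 ± 0.22, -0.0068 ± 0.29 and -0.24 ± 0.24 (SE, adjusted p between 0.305 and 0.993). Their starts lay 141, 113, 935 and 756 bases from those of the members. Mrpl46 and Mrps11 face each other with 42 bases between their starts and stood at 1.05 ± 0.33 and 0.62 ± 0.26 (SE, adjusted p = 0.0752 and 0.179). The neighbours were named after their values were seen.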

How the data were processed

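RNA of sorted marrow cells from 10 mice was measured on 1 array each. The deposited intensity values are linear probe set signals, and the submitters' processing notes name MAS5 5.0. All 10 arrays had a trimmed mean (2% off each end) of 150.001, so total RNA per cell cannot be compared, and amplification favours 3' ends. The number of arrays limits the precision. For 34958 probe sets naming 1 gene, symbols were brought up to date by Entrez number in RefSeq (GRCm38.p6), and 64 control probe sets were left out. Values were taken as log2(signal + 16), which understates changes of dim genes. The test, on genes whose mean passed the 40th percentile over probe sets, was limma 3.58.1 under R 4.3.3 (lmFit, eBayes with intensity trend, two-sided, Benjamini-Hochberg over all 12580 genes, threshold 0.05). Standard errors (SE) are the model's. The procedure was tested on simulated data. The labels call the samples biological replicates, 1 mouse each.

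The members and lists were chosen with earlier results of these data known. Genes named are the members past the threshold, the 8 next by p, the 4 largest and 4 smallest differences, the 3 brightest and 3 dimmest probe sets, the Mrps18 relatives and Mrps-named genes outside the small subunit, and from each pathway list those past the threshold and the 2 with the smallest p, beside fixed markers. Others are stated to have been chosen after their values were seen. Some of the fixed markers are not reported here. Alternatives changed the offset, scaling, filter, probe set choice, variance prior, array weights, replicate block, RNA quality covariate, symbols and threshold, or left out each array.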

Additional observations from a re-analysis of the deposited data

Results flagged for a closer look

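An array stood far from the others of its group for several named genes, by the gap to its nearest neighbour relative to the range. Among 110 groups of 5 tested there were 10 such arrays, where chance gives about 1 in 20. On the log2(signal + 16) scale, Mll-deficient replicate 4 was low for Mrpl40 (9.55), Mrps18a (7.42) and Kmt2a (6.09). Mll-deficient replicate 2 was low for Mrpl3 (9.55) and Tufm (9.82), replicate 3 was high for Mrpl38 (8.52) and low for Kit (5.45), and replicate 5 was low for Mrpl33 (6.91). Control replicate 2 was high for Mrpl38 (7.60) and control replicate 4 for Mrpl50 (7.94).

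A probe set assigned to both Mrpl30 and Gm6238 names no single gene and so stood outside the members. It read 1308, 1234, 2383, 1478 and 1698 on Mll-deficient arrays, against 579, 1015, 824, 654 and 407 on control arrays. The groups did not overlap, and the difference was 1.22 ± 0.26 (SE, limma adjusted p = 0.0163 over all probe sets). The probe set shared by Mrpl53 and Ccdc142 stood at 0.19 ± 0.21 (SE, limma adjusted p = 0.696).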

How the results depend on the processing

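With all arrays kept, between 13 and 21 members rose under 11 of 12 changed settings, 0 fell under any of the 12, and the member median lay between 0.46 (all probe sets of a gene averaged) and 0.68. Under those 11 settings 2.04% (no filter) to 5.42% (60th percentile filter) of all tested genes were higher. The count moved to 39 with the RNA quality covariate, where all-gene calls moved to 968 higher and 642 lower. It moved to 26 at an adjusted p of 0.10 and to 4 at 0.01 (limma). The shares of all tested genes called at these thresholds are not given here, so these counts have no background beside them. Leaving out each array in turn gave 5 to 20 members higher and 0 lower, with a median between 0.57 and 0.66, while 1.89% to 4.41% of all tested genes were higher. The cause of these moves was not tested, except that fewer arrays enter each leave-one-out fit. Median centring moved the calls over all genes to 471 higher and 107 lower, against 473 and 221. The labels number the mice 1 to 5 in both groups and state no pairing. Same-numbered arrays correlated in their deviations by -0.23 to 0.28, with 1 of 5 best matched to its own number. These 5 correlations cannot show whether same-numbered samples were paired or processed together. With the replicate block 13 members rose, against 3.17% of all tested genes higher, and the member median stayed at 0.62. Mrps10, Mrps22, Mrps26, Mrpl34 and Mrpl41 lost their calls under the block (adjusted p between 0.0562 and 0.0657), and Mrpl11 gained one. Mrpl34 also lost its call with offset 1, median centring and no filter, Mrpl41 with offset 1, no filter and no intensity trend, and Mrps10 with median centring (adjusted p between 0.0502 and 0.0717). Small differences changed sign. That of Mrpl44 was -0.0377 with quantile normalization and -0.0505 with the covariate, and lay between -0.11 and 0.15 over the leave-one-out fits. Mrpl50 stood at 0.46 with probe sets averaged and between -0.21 and 0.15 over the leave-one-out fits. Over the same fits Mrpl33 lay between -0.22 and 0.0795, above 0 without Mll-deficient replicate 5, and Kmt2a between -0.54 and 0.0221, above 0 without Mll-deficient replicate 4.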
